A study of Mus musculus with 30 samples.

Results

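The genes described here encode the matrix metalloproteases (Mmp), the secreted ADAMTS proteases (Adamts), the ADAMTS-like proteins that lack a protease domain (Adamtsl), and the tissue inhibitors of metalloproteases (Timp). They were every gene that alone named a probe set, on either chip, and whose symbol began with Mmp, Adamts or Timp and a digit, or with Adamtsl. That gave 42 of the 18193 genes named on the chips, with 78 of the 35041 probe sets that had 1 gene. Each gene was represented by its brightest probe set, taken from the A chip where one there was above background, and 31 genes were represented on A and 11 on B. The samples were from mouse, and their titles name cell culture and leg, with sampling at 0, 4, 12, 24 and 48 h and 3 replicates at each hour. Every replicate was run on both chips, A and B, of an Affymetrix oligonucleotide set, which made 30 arrays. The labels name no genotype, strain, age, agent or medium and not the event that starts the clock, so 0 h is only the earliest sampling time. They do not say that replicates were separate cultures or animals, and the p-values reflect no more than the array-to-array spread, possibly a technical one.

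Metalloproteases and ADAMTS proteases cut collagens, proteoglycans and other proteins of the extracellular matrix, and most are made as inactive precursors. The TIMPs bind the active site of the proteases, and TIMP2 also takes part in the activation of the MMP2 precursor by the membrane protease MMP14. In muscle these enzymes are known from matrix turnover during regeneration, and in cultured mouse myoblasts the cutting of the proteoglycan versican by ADAMTS proteases is linked to cell fusion.

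The deposited values were linear probe set intensities, scaled so that every array had a trimmed mean of 500.1 or 500.2. All 11 muscle cell markers examined, among them Myod1, Myog and Des, were above background. Of the markers of other cells, 1 of 10 for fibroblasts was (Col3a1), while others such as Pdgfra, Dcn and Lum were not. For macrophages 3 of 10 were (Csf1r, Adgre1 and Cd14), and Ptprc was among those that were not. For endothelial cells 3 of 8 were (Kdr, Tek and Egfl7), and Pecam1 was among those that were not. For pericytes and smooth muscle 4 of 7 were (Rgs5, Acta2, Cspg4 and Tagln). Of the markers on the chips, 2 of 3 for Schwann cells (Sox10 and Pmp22), 2 of 5 for neutrophils (Mpo and Ngp) and 0 of 3 for adipocytes were. In such bulk cultures fewer cells of a type and less RNA per cell cannot be told apart. Over all hours together, 24.4% of all 27083 tested probe sets differed between replicate 3 and the other replicates. That difference was not tested at each single hour. Comparisons between hours are therefore given from limma over all arrays, from limma with a term for replicate 3 (called the batch fit here), and from limma on replicates 1 and 2 alone. A gene is called at an adjusted p under 0.05. The 3 arrays per hour on each chip limit the precision.

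Of the 42 genes, 25 were above background, here meaning that the probe set lay in the upper 60% of its chip by mean log2 value. This is a rank on the chip and no detection call. The 25 comprised Mmp2, Mmp11, Mmp14, Mmp16 and Mmp24, the proteases Adamts1, Adamts3, Adamts4, Adamts5, Adamts6, Adamts7, Adamts9, Adamts10, Adamts12, Adamts16 and Adamts18, the 5 ADAMTS-like genes Adamtsl1 to Adamtsl5, and all 4 inhibitors, Timp1 to Timp4. The 17 below background were Mmp1a, Mmp1b, Mmp3, Mmp7, Mmp8, Mmp9, Mmp10, Mmp12, Mmp13, Mmp17, Mmp19, Mmp20, Mmp23, Adamts8, Adamts15, Adamts19 and Adamts20. They include the interstitial collagenases Mmp1a, Mmp1b, Mmp8 and Mmp13, the stromelysins Mmp3 and Mmp10, the gelatinase Mmp9, the macrophage elastase Mmp12 and the tooth enamel protease Mmp20. Their intensities ran from 0.60 to 316 over all arrays.

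For the genes below background outside the chromosome 9 run, the ranges over the 15 arrays were 59.8 to 132 for Mmp9, 42.7 to 190.2 for Mmp17, 4.80 to 96.4 for Mmp19, 10.7 to 248 for Mmp23, 6.50 to 105 for Adamts8, 25.5 to 88.6 for Adamts15, 18.0 to 220.3 for Adamts19 and 8.70 to 316 for Adamts20. Mmp17 encodes a protease with a lipid anchor in the membrane, and Adamts15 one of the proteases that cut versican. Mmp9 averaged 88.8 ± 21.4 at 0 h, 94.5 ± 32.6 at 4 h, 75.3 ± 15.6 at 12 h, 79.0 ± 12.1 at 24 h and 78.9 ± 30.0 at 48 h (SD, n = 3 each), with arrays that overlapped those at 0 h at every hour. Nearest to the limit were Timp4 inside it, at percentile 40.9 of its chip, and Mmp23 outside it, at percentile 37.4.

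The genes below background include a run of neighbours. In the RefSeq gene order 10 Mmp genes follow one another on chromosome 9 (Mmp13, Mmp12, Mmp1b, Mmp3, Mmp1a, Mmp10, Mmp8, Mmp27, Mmp20 and Mmp7). Of these 10, 9 were among the 42 genes and 0 of the 9 were above background, against 25 of the other 33. Within the 9, intensities ran from 0.60 to 147 on any array. Adamts15 and Adamts8, which also lie side by side on chromosome 9, were both below background.

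**Figure D1:**
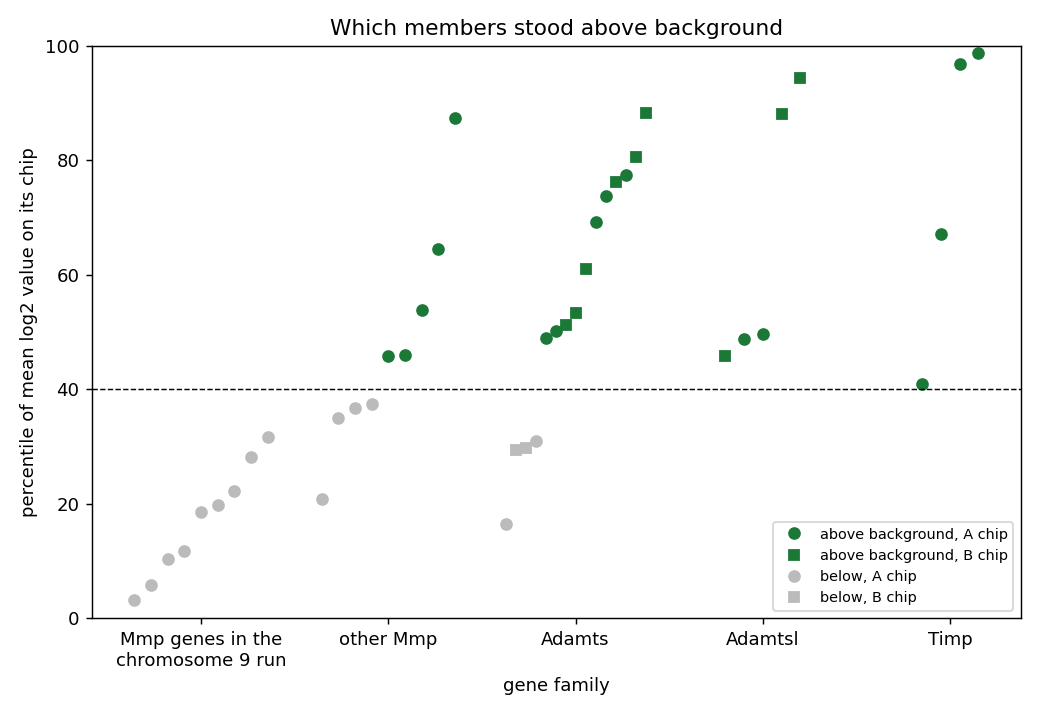
Percentile of each gene's mean log2 value on its own chip (vertical axis, percent of probe sets) by gene family (horizontal axis); circles are A chip and squares B chip probe sets, green is above background, and the dashed line is the limit. The 9 measured genes of the chromosome 9 run all lie under the line, and the 4 Timp and 5 Adamtsl genes all lie over it; percentiles rank probe sets and do not compare RNA amounts between genes.

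Genes of the run on chromosome 9 also shared short promoter sequences. Promoters of 27 of the 42 genes were in the RefSeq table (GRCm38.p6), and the 250 bases before the start were searched on both strands. TGANTCA, with any base at N, was in 8 of the 9 genes of the run (all but Mmp8) and in 0 of the 18 others. Of all 32851 promoters, 6.7% had it. The string takes in the sites TGACTCA and TGAGTCA of the AP-1 transcription factors, but matches with A or T at N were counted as well. TATAAA, the core of the TATA box, was in 7 of the 9 and in 2 of the 18 others (Adamts1 and Adamtsl2), against 12.4% of all promoters. A match says that the letters are present and nothing about whether a factor binds there. Mmp13 and Mmp3 are shown as examples of the run, and Mmp14 as a gene above background with neither sequence; capitals mark TGANTCA and TATAAA. The windows are chr9:7272264-7272513, plus strand (Mmp13), chr9:7445572-7445821, plus strand (Mmp3) and chr14:54431348-54431597, plus strand (Mmp14), each ending at the base before the start.
Mmp13: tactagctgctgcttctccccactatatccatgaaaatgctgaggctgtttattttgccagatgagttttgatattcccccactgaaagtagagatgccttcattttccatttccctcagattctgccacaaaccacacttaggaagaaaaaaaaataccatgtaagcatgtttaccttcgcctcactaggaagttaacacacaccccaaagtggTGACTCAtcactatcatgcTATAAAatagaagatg
Mmp3: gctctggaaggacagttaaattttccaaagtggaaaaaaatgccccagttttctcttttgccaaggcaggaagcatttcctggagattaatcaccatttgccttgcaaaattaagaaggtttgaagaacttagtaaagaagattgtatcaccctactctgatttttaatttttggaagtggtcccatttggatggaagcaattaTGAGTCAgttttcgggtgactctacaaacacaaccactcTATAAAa
Mmp14: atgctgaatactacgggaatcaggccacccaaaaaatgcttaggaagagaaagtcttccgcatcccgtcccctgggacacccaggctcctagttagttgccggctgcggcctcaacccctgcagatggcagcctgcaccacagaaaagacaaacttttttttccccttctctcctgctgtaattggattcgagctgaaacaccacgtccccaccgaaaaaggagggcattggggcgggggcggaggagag

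In the Mmp13 promoter TGACTCA began 35 bases before the start and TATAAA 16 bases before it. In the Mmp3 promoter TGAGTCA began 46 bases and TATAAA 7 bases before the start. Mmp13 had 0.60 to 35.2 and Mmp3 had 24.2 to 111 intensity units over the 15 A arrays, both under the limit of 96.6 for the mean on that chip.

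Across the hours 1 of the 25 genes above background, Adamtsl2, differed in limma over all arrays (moderated F test over the 5 hours, 1.43% of all tested probe sets called). Against 0 h, 0 genes were called at 4 h (0% of all probe sets), 0 at 12 h (0.00369%), 1 at 24 h (Adamtsl2, 1.76%) and 0 at 48 h (1.64%). At an unadjusted p under 0.05 the numbers were 0, 0, 5 and 9. Shares of all probe sets at an unadjusted p were not counted. Such numbers, here and below, are therefore not read as a trait of these genes. The log2 differences of the 25 genes ran from -1.27 (Timp3) to 1.17 (Adamtsl2) at 24 h and from -1.15 (Adamts4) to 1.72 (Adamts5) at 48 h. Their median was -0.24 at 24 h and 0.01 at 48 h, beside -0.03 and 0.00 over all tested probe sets. Of the 25 genes, 12 had their lowest mean at 24 h and 10 their highest at 48 h. In replicates 1 and 2 these counts were 11 and 8. The same shares over all probe sets were not counted, so the counts are not read as a trait of these genes.

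With replicate 3 as a batch term, 10 of the 25 genes, or 40%, differed between the hours (10.3% of all probe sets called): Adamts1, Adamts3, Adamts4, Adamts5, Adamtsl2, Adamtsl5, Mmp11, Mmp14, Timp2 and Timp3. At 4 h and 12 h 0 genes were called (0% and 0.69% of all probe sets), where an unadjusted p under 0.05 was reached by 1 and 3 genes. At 24 h the fit called 6 genes, or 24% (8.59% of all probe sets), of which Adamts1, Adamts5 and Adamtsl2 were higher (4.16% of all) and Mmp11, Mmp14 and Timp3 lower (4.43%). At 48 h it called 5, or 20% (7.53%), with Adamts1, Adamts5 and Adamtsl5 higher (3.86%) and Adamts4 and Timp2 lower (3.66%). These counts rested in part on single arrays: between the hours 6 genes were called without the 24 h array of replicate 2, at 24 h 3 without the 24 h array of replicate 1, and at 48 h 3 without the 0 h array of replicate 2. In replicates 1 and 2 alone 12 genes differed between the hours (12.7%), the same 10 with Mmp2 and Adamtsl4. There 0 genes were called at 4 h (0.0886%), 1 at 12 h (Timp3, 2.41%), 8 at 24 h (10.1%) and 10 at 48 h (9.35%). All comparisons share the 0 h arrays.

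**Figure D2:**
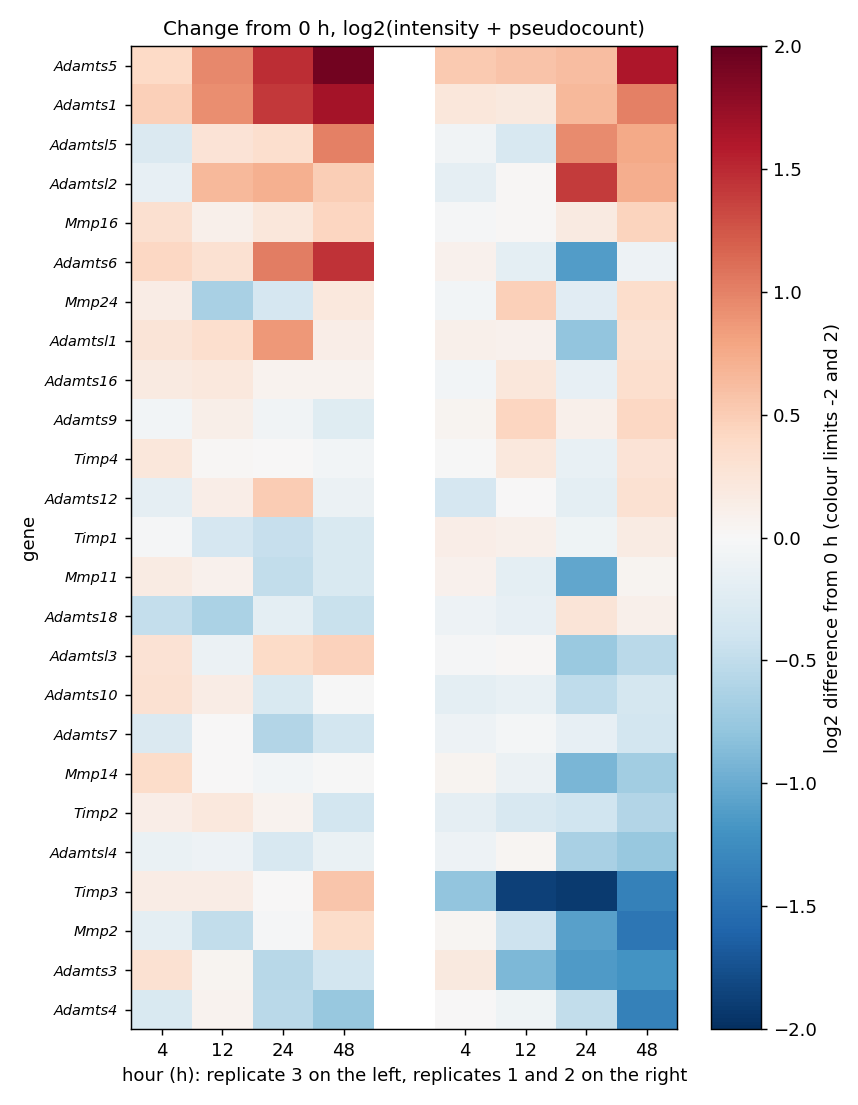
Log2 difference from 0 h on the log2(intensity + pseudocount) scale for the 25 genes above background (rows, ordered by their 48 h difference in the batch fit) at 4, 12, 24 and 48 h (columns), with the single arrays of replicate 3 on the left and the mean of replicates 1 and 2 on the right; red is higher than at 0 h and blue lower. Adamts5 and Adamts1 are red at 48 h in both blocks, while Timp3 and Mmp2 at 48 h are blue in replicates 1 and 2 and not in replicate 3.

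Adamtsl2, the single gene called over all arrays, encodes a secreted glycoprotein that binds fibrillin and latent TGF-beta binding protein and that is mutated in human geleophysic dysplasia, a skeletal disorder. In the order replicate 3, replicate 1 and replicate 2, which is kept below, its intensities were 1624, 1678 and 2270.3 at 0 h, 1446, 1671 and 1756 at 4 h, 2569.7, 2198 and 1802 at 12 h, 2692, 5251 and 5201 at 24 h and 2305, 3368 and 3135 at 48 h. All 3 arrays at 24 h and all 3 at 48 h lay above all 3 at 0 h, and the arrays at 4 h and 12 h overlapped them. Adamtsl2 averaged 4381 ± 1463 at 24 h and 1858 ± 358 at 0 h (SD, n = 3 arrays each). The difference at 24 h over all arrays was 1.17 on the log2 scale (SE 0.24, limma adjusted p = 0.035), and at 48 h it was 0.64 (SE 0.24, adjusted p = 0.24). Leaving out single arrays moved the adjusted p at 24 h between 0.0039 and 0.17. The call was lost without any one of the 3 arrays at 0 h, the 4 h, 12 h or 24 h array of replicate 1, or the 4 h, 24 h or 48 h array of replicate 2. In the batch fit it was kept in all 15 such fits (adjusted p = 0.0033 over all arrays). In replicates 1 and 2 alone Adamtsl2 also rose at 48 h (log2 difference 0.72, SE 0.16, adjusted p = 0.021).

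In the RefSeq gene order Adamtsl2 lies next to Mymk, which encodes the myoblast fusion protein myomaker, on chromosome 2. Mymk had a log2 difference at 24 h of 0.53 over all arrays (adjusted p = 0.13) and 0.64 in replicates 1 and 2 alone (adjusted p = 0.019). The Adamtsl2 promoter is shown because this gene carried the single call over all arrays. Capitals mark TATAAA and CAGCTG, an E-box sequence of the kind bound by muscle transcription factors such as MYOD1. The window is chr2:27079129-27079378, plus strand, on GRCm38.p6.
Adamtsl2: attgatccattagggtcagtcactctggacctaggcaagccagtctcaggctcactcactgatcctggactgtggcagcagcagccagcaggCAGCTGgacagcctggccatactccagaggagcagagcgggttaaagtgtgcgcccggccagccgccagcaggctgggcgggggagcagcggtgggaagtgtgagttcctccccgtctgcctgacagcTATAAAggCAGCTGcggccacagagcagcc

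CAGCTG began 158 and 22 bases before the start, and TATAAA 30 bases before it. CAGCTG was in 6 of the 27 promoters matched (Adamts9, Adamts12, Adamtsl2, Adamtsl5, Timp2 and Timp4) and in 13.0% of all promoters, and in 0 of the 9 from the chromosome 9 run. In the batch fit Adamtsl2 was higher at 24 h, Adamtsl5 was higher and Timp2 lower at 48 h, and Adamts9, Adamts12 and Timp4 were called at no hour.

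Adamts1 and Adamts5 encode proteases that cut the proteoglycans aggrecan and versican, and they lie next to each other on chromosome 16. Adamts1 had intensities of 459.8, 299 and 309.5 at 0 h, 649, 384 and 341 at 4 h, 899.8, 364 and 338 at 12 h, 1269.6, 509 and 479.6 at 24 h and 1528, 692 and 597 at 48 h. All 3 arrays at 24 h and at 48 h lay above all 3 at 0 h, and the replicate 3 array was the highest at every hour. Adamts1 averaged 939 ± 512 at 48 h and 356 ± 90.0 at 0 h (SD, n = 3 each). Over all arrays it was not called at 48 h (log2 difference 1.23, SE 0.44, adjusted p = 0.19), but in the batch fit it rose at 24 h (0.90, SE 0.16, adjusted p = 0.0015) and at 48 h (1.23, SE 0.16, adjusted p = 0.00015).

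Adamts5 had intensities of 398, 175 and 203 at 0 h, 536, 269 and 298 at 4 h, 801, 332 and 262 at 12 h, 1157, 342 and 273 at 24 h and 1603, 673 and 599 at 48 h. At 48 h all 3 arrays lay above all 3 at 0 h, while at 4, 12 and 24 h the arrays overlapped those at 0 h, since replicate 3 began higher than replicates 1 and 2. It averaged 958 ± 559 at 48 h and 258 ± 122 at 0 h (SD, n = 3 each), which was not called over all arrays (log2 difference 1.72, SE 0.53, adjusted p = 0.13). In the batch fit it rose at 24 h (log2 difference 0.91, SE 0.18, adjusted p = 0.0033) and at 48 h (log2 difference 1.72, SE 0.18, adjusted p = 2.9e-05). All 3 Adamts5 probe sets above background, 2 on A and 1 on B, were called higher at 48 h in the batch fit and also without replicate 3, with log2 differences of 1.42 to 1.72 and 1.33 to 1.61. The Adamts5 probe set on B was brighter than the one on A given above, with 2741.6, 1126.2 and 1416.6 at 0 h. At 48 h it had 10528.1, 4042.8 and 3402.5. Intensities of different probe sets do not compare RNA amounts. The calls for Adamts1 and Adamts5 at 24 h and 48 h were kept in the batch fit whichever array was left out.

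The Adamts1 promoter is shown as that of a gene that rose at 24 h and 48 h with the batch term and also without the replicate 3 arrays; Adamts1 and Adamtsl2 were the only matched genes outside the chromosome 9 run with TATAAA, which is in capitals. The window is chr16:85803114-85803363, minus strand, on GRCm38.p6, and TATAAA begins 32 bases before the start.
Adamts1: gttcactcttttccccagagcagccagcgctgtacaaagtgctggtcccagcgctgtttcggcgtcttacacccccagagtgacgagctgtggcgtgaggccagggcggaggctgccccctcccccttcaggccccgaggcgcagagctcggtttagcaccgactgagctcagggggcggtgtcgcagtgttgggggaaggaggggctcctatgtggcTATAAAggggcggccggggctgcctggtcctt

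Adamts4, which encodes another aggrecan-cutting protease, went the other way. Its intensities were 447, 1321 and 1008 at 0 h, 357, 1393 and 959 at 4 h, 469.7, 1149 and 1029 at 12 h, 299, 841 and 792 at 24 h and 253, 345 and 546 at 48 h. The 48 h array of each replicate was that replicate's lowest, and the arrays at 48 h still overlapped those at 0 h because replicate 3 was low at both hours. Adamts4 was not called over all arrays at 48 h (log2 difference -1.15, SE 0.53, adjusted p = 0.32), fell in the batch fit (log2 difference -1.15, SE 0.20, adjusted p = 0.0014) and fell in replicates 1 and 2 alone (log2 difference -1.35, SE 0.22, adjusted p = 0.0015). A second probe set was also lower at 48 h in the batch fit (log2 difference -0.76, adjusted p = 0.048).

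Adamts3 encodes a protease that trims the amino end of procollagen II and activates the growth factor VEGF-C. It had intensities of 200.2, 451 and 475 at 0 h, 261, 489.6 and 596 at 4 h, 211, 175 and 282 at 12 h, 119, 218 and 149.9 at 24 h and 143, 156 and 189 at 48 h. All 3 arrays at 48 h lay below all 3 at 0 h. In the batch fit Adamts3 differed between the hours (F test, adjusted p = 0.029), a call kept in 8 of 15 fits that left out an array, with no single hour called (adjusted p = 0.07 at 24 h and 0.065 at 48 h). In replicates 1 and 2 alone it fell at 48 h (log2 difference -1.20, SE 0.30, adjusted p = 0.04), whereas its second probe set had a log2 difference of -0.17 (adjusted p = 0.85). The genes for both substrates named above fell over all arrays. Col2a1, the chain of collagen II, had a log2 difference of -2.77 at 24 h and -2.44 at 48 h, and Vegfc had -2.05 and -1.98.

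Of the other ADAMTS proteases, Adamts7, which cuts the cartilage protein COMP, had 148, 165 and 231 at 0 h, 116, 149 and 219.8 at 4 h, 149.6, 183 and 198 at 12 h, 89.6, 175 and 166 at 24 h and 109, 129.8 and 164 at 48 h. Its arrays overlapped those at 0 h at every hour, and it was called at no hour in any of the 3 fits. Adamts6, Adamts9, Adamts10, Adamts12, Adamts16 and Adamts18 were also called at no hour. Adamts10, whose protein binds fibrillin, had 3 arrays at 24 h below the 3 at 0 h, with 132 ± 20.02 at 24 h and 189 ± 14.6 at 0 h (SD, n = 3 each), and was not called in the batch fit (log2 difference -0.45, SE 0.20, adjusted p = 0.16). Adamts6, a gene needed for heart development in mice, had different courses in the replicates, though the difference did not pass the test. It had 322, 154 and 214 at 24 h, against 132, 387 and 547 at 0 h, so that it was higher at 24 h in replicate 3 and lower in replicates 1 and 2. The difference between those changes was 2.14 on the log2 scale (SE 0.63, adjusted p = 0.34), and a second Adamts6 probe set disagreed in sign at 48 h (-0.69 against 0.41 in the batch fit).

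The remaining ADAMTS proteases are given by their means (± SD, n = 3 arrays at each hour). Adamts9, a versican-cutting protease conserved across animals, averaged 682 ± 239.9 at 0 h, 667 ± 101 at 4 h, 836 ± 132 at 12 h, 681 ± 123 at 24 h and 771 ± 221 at 48 h. Adamts12, which like ADAMTS7 cuts COMP, averaged 579 ± 73.5 at 0 h, 468 ± 72.8 at 4 h, 606 ± 135 at 12 h, 624 ± 257 at 24 h and 654 ± 79.2 at 48 h. For both, the arrays at every later hour overlapped those at 0 h. Adamts16 averaged 1143 ± 106 at 0 h, 1184 ± 292 at 4 h, 1340.0 ± 143 at 12 h, 1083 ± 209.5 at 24 h and 1387 ± 365 at 48 h. Adamts18 averaged 255 ± 58.4 at 0 h, 206 ± 10.2 at 4 h, 195 ± 61.9 at 12 h, 279.7 ± 61.7 at 24 h and 240.1 ± 70.1 at 48 h. The arrays of Adamts16 and Adamts18 also overlapped those at 0 h at every hour. A second Adamts16 probe set was lower at 48 h in replicates 1 and 2 and not in replicate 3. It had 379.6, 427.6 and 363.4 at 48 h, against 334.1, 604.1 and 611.9 at 0 h.

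Among the ADAMTS-like genes, Adamtsl5, whose protein binds fibrillin microfibrils, had intensities of 149, 107 and 138 at 0 h, 116, 105 and 123 at 4 h, 187, 139 and 57.6 at 12 h, 196, 263 and 258 at 24 h and 331, 205 and 248 at 48 h. All 3 arrays at 24 h and at 48 h lay above all 3 at 0 h. It was not called over all arrays (log2 difference 0.84, SE 0.28, adjusted p = 0.15 at 48 h) and rose at 48 h in the batch fit (log2 difference 0.84, SE 0.25, adjusted p = 0.044). That call was lost under quantile normalization and median centring (adjusted p up to 0.085) and in 8 of 15 fits that left out an array. In replicates 1 and 2 alone it rose at 24 h (log2 difference 0.94, SE 0.28, adjusted p = 0.041). Its other probe set, on the B chip, had 63.5, 9.30 and 11.8 at 0 h, 55.3, 15.8 and 12.3 at 4 h, 244, 139 and 120.4 at 12 h, 199.5, 352 and 355 at 24 h and 404, 299 and 240.0 at 48 h. All 3 of its arrays at 12, 24 and 48 h lay above all 3 at 0 h. Its mean lay below background, and so did its 0 h arrays (limit 153 on that chip), which leaves the size of the rise unmeasured; with no filter the batch fit called it higher at 24 h (adjusted p = 0.0032; 4.19% of all probe sets called) and at 48 h (adjusted p = 0.0026; 3.76%). It was the only one called at those hours of the 15 probe sets that were below background for genes above it.

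Adamtsl4, a fibrillin-1 binding protein mutated in human ectopia lentis, had 244, 150.4 and 179 at 0 h, 221, 168 and 136 at 4 h, 226, 159 and 179.5 at 12 h, 191, 93.5 and 94.1 at 24 h and 221, 74.9 and 96.6 at 48 h. The arrays of replicates 1 and 2 at 24 h and at 48 h lay below all 0 h arrays, while those of replicate 3 did not. Adamtsl4 fell at 48 h in replicates 1 and 2 alone (log2 difference -0.76, SE 0.22, adjusted p = 0.039) and was not called in the batch fit (adjusted p = 0.071). Adamtsl3 had 1618, 1198 and 1126 at 0 h, 1993, 1027 and 1273 at 4 h, 1483, 1409.9 and 978 at 12 h, 2123, 797 and 568 at 24 h and 2251, 719 and 846 at 48 h, and Adamtsl1 averaged 186 ± 73.7 at 0 h, 208 ± 47.9 at 4 h, 211 ± 45.3 at 12 h, 171 ± 118 at 24 h and 235 ± 101 at 48 h (SD, n = 3 each). Adamtsl3 and Adamtsl1 were called at no hour in any of the 3 fits.

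**Figure D3:**
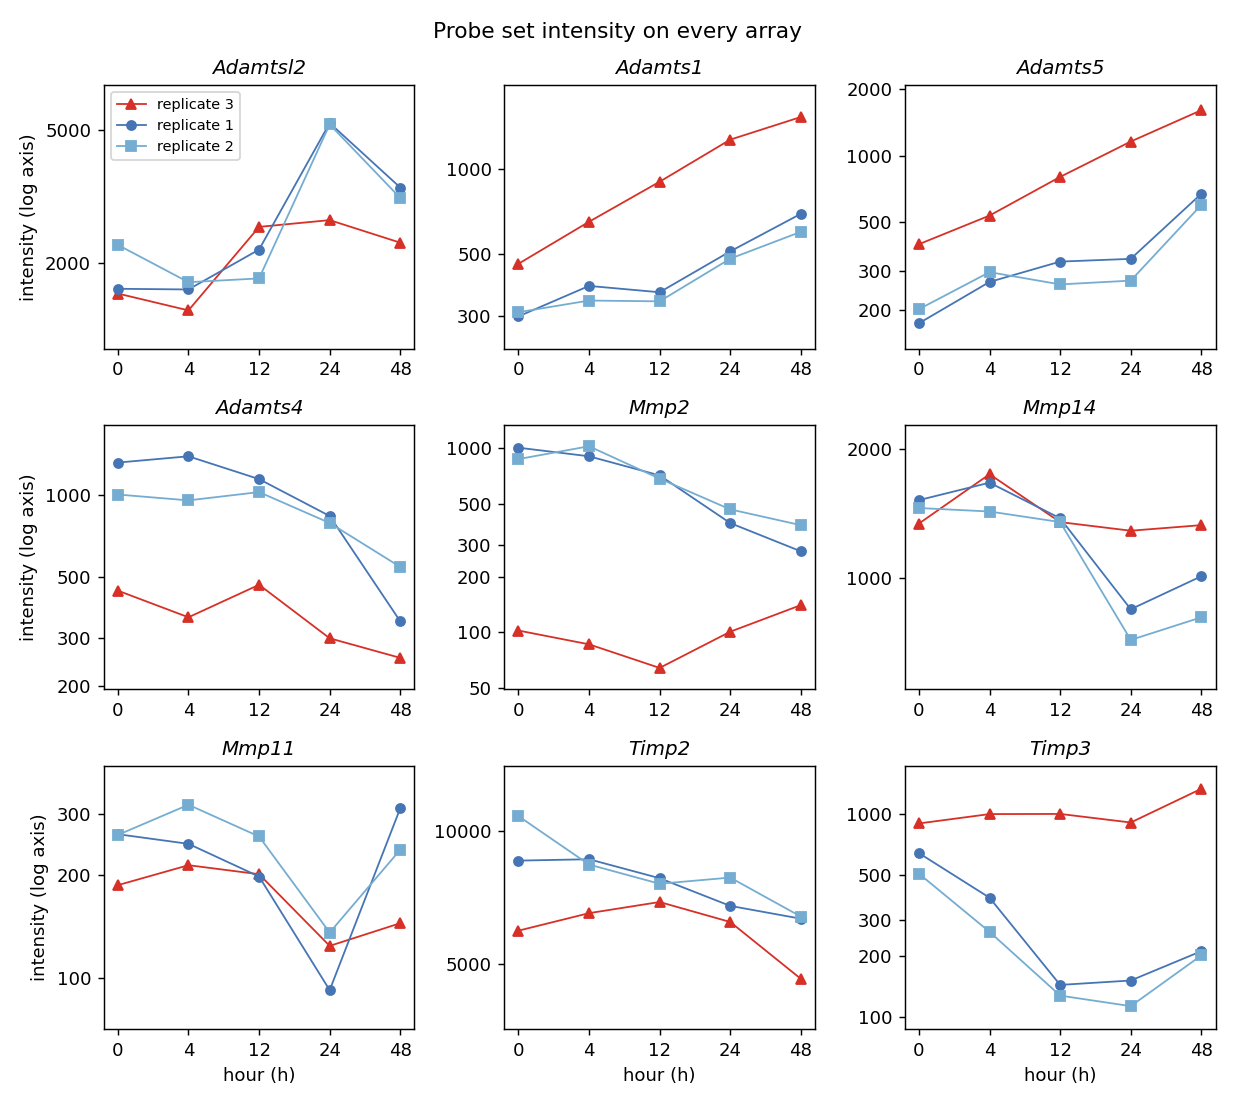
Intensity of 9 genes on every array (vertical log axis, linear intensity units, 1 scale per panel) by hour (horizontal axis, hours evenly spaced and not to scale); red triangles are replicate 3 and blue circles and squares replicates 1 and 2, with lines joining arrays of the same replicate number only as a guide. Adamts1 and Adamts5 are higher at 48 h than at 0 h in all 3 replicates. Adamtsl2 is highest at 24 h in all 3 replicates, in replicate 3 only slightly above its 12 h array. Timp3 and Mmp2 are lower at 48 h than at 0 h in replicates 1 and 2 while replicate 3 stays apart.

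Mmp2, the gelatinase that cuts denatured collagen and basement membrane collagen IV, had intensities of 102, 1008 and 874 at 0 h, 86.0, 905 and 1026 at 4 h, 64.0, 713 and 685 at 12 h, 101, 392 and 466 at 24 h and 141, 276 and 382 at 48 h. The replicate 3 array was far below the others at every hour. The arrays of replicates 1 and 2 at 24 h and 48 h lay below their own arrays at 0 h, whereas in replicate 3 the 24 h array was close to the 0 h array and the 48 h array above it. Mmp2 fell in replicates 1 and 2 alone at 24 h (log2 difference -1.08, SE 0.17, adjusted p = 0.0011) and at 48 h (log2 difference -1.45, SE 0.17, adjusted p = 0.00014). It was called neither over all arrays at 48 h (log2 difference -0.84, SE 0.99, adjusted p = 0.76) nor in the batch fit (adjusted p = 0.11). The second Mmp2 probe set fell in replicates 1 and 2 alone too, with log2 differences of -1.55 at 24 h and -1.47 at 48 h, and was called lower at 24 h in the batch fit (-1.01, adjusted p = 0.046). The 5 arrays of replicate 3, at 64.0 to 141, lay around the background limit of 96.6 on that chip. That limit is a rank and no detection call, so how well a fall could be measured there is not known. The course in replicate 3 therefore says little when set against that in replicates 1 and 2.

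Some markers of other cells, Col3a1 and Rgs5 among them, fell with Mmp2, Timp3 and Mmp14 in replicates 1 and 2, while others did not. Col3a1 made up most of the fibroblast sum given next, with 3555.5 and 3403.1 at 0 h in replicates 1 and 2. The summed intensity of the 10 fibroblast markers was 1987 and 2122 at 24 h and 2717 and 2380 at 48 h, against 3950 and 3972 at 0 h, while in replicate 3 it was 4243 at 24 h and 4219 at 48 h, against 3303 at 0 h. Col3a1, the collagen III gene and the single one of the 10 above background, fell in replicates 1 and 2 alone at 24 h (log2 difference -1.02, SE 0.12, adjusted p = 0.00014) and at 48 h (log2 difference -0.78, SE 0.12, adjusted p = 0.0012). Of the 7 markers of pericytes and smooth muscle, 4 were above background, of which Rgs5 fell there at 24 h (log2 difference -1.85, SE 0.12, adjusted p = 1.6e-06) and at 48 h (log2 difference -2.08, SE 0.12, adjusted p = 5.5e-07) and Tagln was higher at 24 h. Of the markers above background, 0 of 3 for macrophages and 0 of 3 for endothelial cells were called at any hour in replicates 1 and 2 alone. Pmp22, a Schwann cell marker, was called lower there at 48 h. The part of such cells in the falls was not tested.

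Mmp14 encodes the membrane-anchored protease that activates MMP2. Its intensities were 1339, 1518 and 1455 at 0 h, 1744, 1667 and 1428 at 4 h, 1349, 1377 and 1349.7 at 12 h, 1289, 846 and 717 at 24 h and 1328, 1009.5 and 810.0 at 48 h. All 3 arrays at 24 h and at 48 h lay below all 3 at 0 h, with the replicate 3 arrays closest to the 0 h range. Mmp14 averaged 951 ± 299.6 at 24 h and 1437 ± 91.0 at 0 h (SD, n = 3 each). It was not called over all arrays (log2 difference -0.62, SE 0.20, adjusted p = 0.12) and fell in the batch fit (log2 difference -0.62, SE 0.17, adjusted p = 0.019), where the call was lost when replicate 1 or replicate 2 lacked its 0 h or 24 h array (adjusted p up to 0.12). In replicates 1 and 2 alone it fell at 24 h (-0.91, adjusted p = 0.0013) and 48 h (-0.70, adjusted p = 0.0084), and so did a second A probe set. The B chip probe set was lower in replicates 1 and 2 too and not called. In replicate 3 the second A probe set had 752.8 at 0 h, 719.1 at 24 h and 797.7 at 48 h. The B chip probe set had 1009, 1198.3 and 1036.1 there, so on both probe sets the arrays at 24 h and 48 h overlapped those at 0 h.

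Mmp11, a stromelysin found in remodelling tissue, had intensities of 186, 262 and 261 at 0 h, 213, 246 and 319 at 4 h, 200.4, 197 and 258 at 12 h, 124, 92.1 and 136 at 24 h and 144, 312 and 236 at 48 h. The 3 arrays at 24 h were each below all arrays of every other hour. Mmp11 averaged 117 ± 22.5 at 24 h and 236 ± 43.5 at 0 h (SD, n = 3 each). Over all arrays it was not called (log2 difference -0.86, SE 0.24, adjusted p = 0.079), and in the batch fit it fell (log2 difference -0.86, SE 0.20, adjusted p = 0.0093), a call lost without the 24 h array of replicate 1 (adjusted p = 0.072). At 48 h the batch fit gave -0.07 (SE 0.20, adjusted p = 0.87), and the arrays overlapped those at 0 h. The membrane-anchored Mmp16 and Mmp24 were called at no hour, and Mmp24 averaged 132 ± 36.0 at 0 h, 132 ± 23.7 at 4 h, 151 ± 69.6 at 12 h, 104 ± 12.1 at 24 h and 169 ± 31.1 at 48 h (SD, n = 3 each). The 3 Mmp16 arrays at 48 h were above the 3 at 0 h (171 ± 23.8 at 48 h and 119 ± 27.3 at 0 h), but a second probe set had a batch-fit log2 difference of 0.00 at 48 h and -0.54 at 24 h, and was called lower at 24 h in replicates 1 and 2 alone (-0.82, adjusted p = 0.031).

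Among the inhibitors, Timp3, which stays bound to the matrix and also inhibits ADAMTS4 and ADAMTS5, had intensities of 903, 645 and 510.4 at 0 h, 1004, 389 and 264 at 4 h, 1006, 144 and 128 at 12 h, 912, 152 and 113 at 24 h and 1338, 212 and 202 at 48 h. At 12, 24 and 48 h the arrays of replicates 1 and 2 lay below all 3 at 0 h, while those of replicate 3 lay above all 3. In replicates 1 and 2 alone Timp3 fell at 12 h (log2 difference -1.87, SE 0.22, adjusted p = 0.00083), at 24 h (log2 difference -1.91, SE 0.22, adjusted p = 9.4e-05) and at 48 h (log2 difference -1.35, SE 0.22, adjusted p = 0.0013). All 4 Timp3 probe sets fell there at both 24 h and 48 h, with log2 differences of -1.34 to -2.30 and -1.08 to -1.81. Over all arrays Timp3 was not called (log2 difference -1.27, SE 0.85, adjusted p = 0.51), and the batch fit called it at 24 h (log2 difference -1.27, SE 0.33, adjusted p = 0.016), a call lost when replicate 1 or replicate 2 lacked its 0 h or 24 h array (adjusted p up to 0.094). The change from 0 h was higher in replicate 3 than in replicates 1 and 2 by 1.93 at 24 h (SE 0.35, adjusted p = 0.026, with 0.425% of all probe sets called) and by 1.91 at 48 h (SE 0.35, adjusted p = 0.017, with 1.17%). Of the 25 genes, such a difference between changes was called for 0 at 4 h and 0 at 12 h (0.00738% and 0.0332% of all probe sets; 1 and 5 genes with an unadjusted p under 0.05), for Timp3 at 24 h, and for Timp3 and Mmp2 at 48 h, a comparison chosen after seeing the data in which replicate 3 has 1 array per hour. For Mmp2 the call says little, since replicate 3 lay near background.

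Timp2 had intensities of 5938, 8551 and 10783 at 0 h, 6505, 8613 and 8379 at 4 h, 6894, 7803 and 7581 at 12 h, 6214, 6756 and 7829 at 24 h and 4622, 6321 and 6391 at 48 h. The 48 h array was the lowest of each replicate, and the arrays at 48 h overlapped those at 0 h. Timp2 averaged 5778 ± 1001 at 48 h and 8424 ± 2425 at 0 h (SD, n = 3 each). It was not called over all arrays (log2 difference -0.52, SE 0.19, adjusted p = 0.21) and fell in the batch fit (log2 difference -0.52, SE 0.12, adjusted p = 0.012), where the call was lost without the 0 h array of replicate 2 (adjusted p = 0.079). All 5 Timp2 probe sets had lower means at 48 h, of which the batch fit called 3 and the fit without replicate 3 called 4.

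Timp1, a secreted inhibitor of most MMPs, had 4213, 3571 and 4403 at 0 h, 4155, 4140.4 and 4582 at 4 h, 3347, 4446 and 4075 at 12 h, 3049, 3798 and 3695 at 24 h and 3405, 4887 and 4046 at 48 h. Its arrays overlapped those at 0 h at every hour, and the difference was -0.21 at 24 h and 0.01 at 48 h over all arrays (SE 0.15 each, adjusted p = 0.54 and 0.99). Timp4 was just over the background limit, with 94.3, 66.6 and 137 at 0 h, 116, 91.6 and 102 at 4 h, 96.5, 152 and 87.9 at 12 h, 94.4, 110.0 and 64.4 at 24 h and 89.3, 156 and 97.1 at 48 h. It was called in none of the 3 fits, at a level where the arrays show little of a change.

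Over the 25 genes, all 3 arrays lay outside the range of the 0 h arrays for 0 genes at 4 h and 0 at 12 h (10.1% and 12% of all tested probe sets), for 6 at 24 h (18.8%) and for 7 at 48 h (19.1%). At 24 h these were Adamts1, Adamtsl2 and Adamtsl5 above the range, and Adamts10, Mmp11 and Mmp14 below it. At 48 h they were Adamts1, Adamts5, Adamtsl2, Adamtsl5 and Mmp16 above, and Adamts3 and Mmp14 below. These are 24% and 28% of the 25 genes, close to the shares of all probe sets.

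Replicate 3 differed from replicates 1 and 2, over all hours, for 9 of the 25 genes (24.4% of all tested probe sets differed, 12% higher and 12.4% lower). Higher in replicate 3 were Timp3 (log2 difference 1.99, SE 0.22, adjusted p = 2.8e-06), Adamts5 (log2 difference 1.26, SE 0.12, adjusted p = 7.4e-07), Adamts1 (log2 difference 1.03, SE 0.11, adjusted p = 1.5e-06), Adamtsl3 (log2 difference 0.92, SE 0.17, adjusted p = 0.0013) and Adamtsl4 (log2 difference 0.66, SE 0.12, adjusted p = 0.00053). Lower were Mmp2 (log2 difference -2.37, SE 0.22, adjusted p = 4.6e-07), Adamts4 (log2 difference -1.24, SE 0.13, adjusted p = 2.3e-06), Adamts7 (log2 difference -0.46, SE 0.12, adjusted p = 0.0082) and Timp2 (log2 difference -0.38, SE 0.08, adjusted p = 0.0014). Each of these calls was kept whichever array was left out. For Mmp2, whose size of difference is limited by the values near background in replicate 3, the 5 arrays of replicate 3 ran from 64.0 to 141, against 276 to 1026 in the 10 of replicates 1 and 2. For Timp3 they ran from 903 to 1338, against 113 to 645. For Adamts4 the ranges met, with 253 to 470 in replicate 3 and 345 to 1393 in replicates 1 and 2. All 4 Timp3, all 3 Adamts5, both Mmp2 and both Adamts4 probe sets above background were called in the same direction, while 1 of the 5 Timp2 probe sets had a difference of 0.04. The count of 9 rests on 1 probe set per gene. A second Adamts6 probe set had 29.6 to 65.8 in replicate 3, against 74.8 to 539.3 in replicates 1 and 2. For a second Adamts16 probe set the ranges met, with 316.6 to 414.7 against 363.4 to 740.8. Markers of cell types also moved with replicate 3. Of the 11 muscle markers, 0 were higher and 4 lower there (Chrna1, Des, Myod1 and Myog). Of the 7 markers of pericytes and smooth muscle, Cspg4 was higher, with 317 to 459.6 in replicate 3 against 151 to 250.3 in replicates 1 and 2, and Rgs5 lower, with 7.80 to 118 against 543 to 2592. Of the 3 Schwann cell markers on the chips Pmp22 was higher (564 to 949.7 against 321 to 613), of the 10 for macrophages Cd14 was higher and Adgre1 lower, and of the 8 for endothelial cells Tek was lower. The summed intensity was 697 to 1129 in replicate 3 and 546 to 789 in replicates 1 and 2 for Schwann cell markers. It was 3287 to 4243 and 1987 to 4522 for fibroblast markers, 10094 to 18321 and 11397 to 22018 for pericyte and smooth muscle markers, and 58990 to 86387 and 66356 to 96158 for muscle markers. The part of these cells in the differences was not tested.

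With no filter, 2 of the 17 genes below background, Mmp23 and Adamts20, were called in the batch fit between replicate 3 and replicates 1 and 2 (14.5% of all probe sets called), a share no higher than that of all probe sets. Mmp23 had 10.7 to 51.4 in replicate 3 against 78.0 to 248 in replicates 1 and 2, around the limit of 96.6 on its chip. Adamts20 had 146 to 316 in replicate 3 against 8.70 to 151 in replicates 1 and 2, whose 10 arrays all lay under the limit of 153 on its chip, so neither has a measured fold. In that fit limma called 0 of the 17 genes at any hour against 0 h (0%, 0.224%, 4.19% and 3.76% of all probe sets at 4, 12, 24 and 48 h), where 2, 2, 2 and 1 reached an unadjusted p under 0.05.

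**Figure D4:**
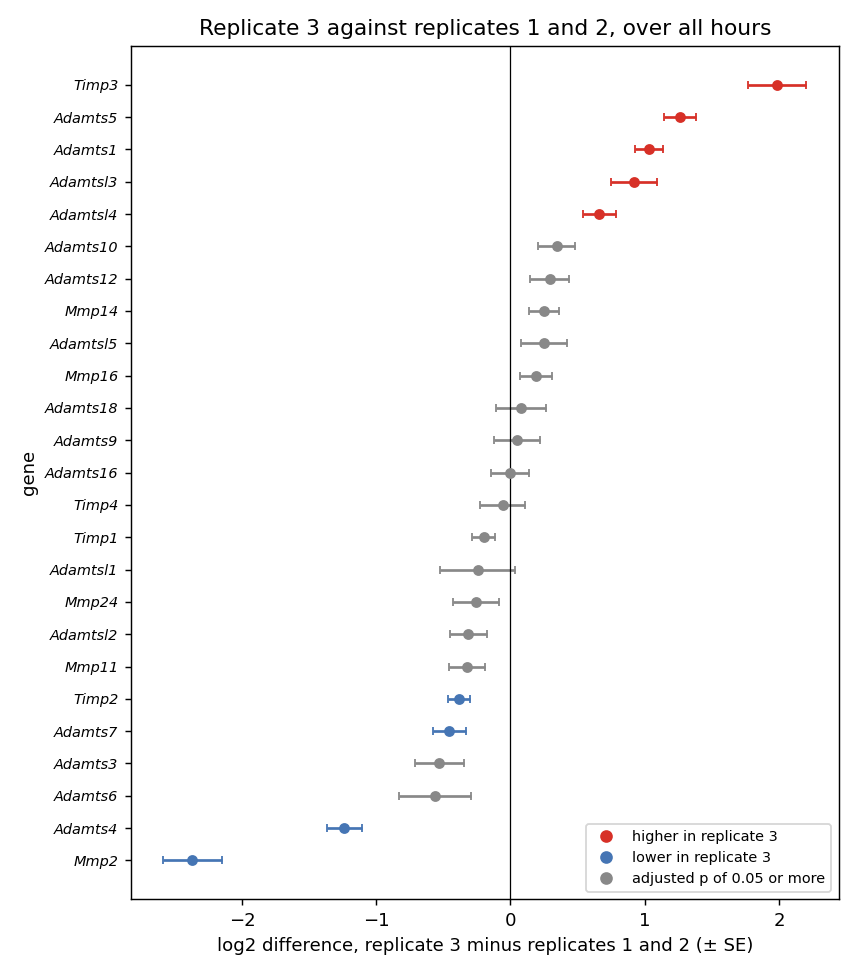
Log2 difference of replicate 3 minus replicates 1 and 2 over all hours (horizontal axis, batch fit, bars are standard errors) for the 25 genes above background (vertical axis); red is called higher, blue called lower and grey not called. Timp3 at 1.99 and Mmp2 at -2.37 lie at the ends, with 5 genes called higher and 4 lower.

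Genes that work with these enzymes were examined in 3 lists. Of 32 activators, receptors and other regulators on the chips 22 were above background, and in the batch fit 1 was higher and 5 lower at 24 h (8.59% of all probe sets called, 4.16% higher and 4.43% lower; median log2 difference -0.17, beside -0.03 over all probe sets). The lower ones were Fbln1 (-1.01, SE 0.14, adjusted p = 0.00039), a matrix protein that is a cofactor of ADAMTS1, Sdc4 (-0.64, SE 0.15, adjusted p = 0.0083), Pcolce (-0.69, SE 0.16, adjusted p = 0.011), an enhancer of procollagen cutting, and Cd44 and Sdc1. Cav1, the caveolin of plasma membrane pits, was higher at 24 h (0.50, SE 0.15, adjusted p = 0.035) and at 48 h (1.00, SE 0.15, adjusted p = 0.00043). At 48 h 2 were higher, Cav1 and the scavenger receptor Lrp1, and 3 lower (3.86% and 3.66% of all probe sets). Fbln1 was the single member also called over all arrays, at 24 h (adjusted p = 0.0064), with 319 ± 14.3 at 24 h and 680 ± 119 at 0 h (SD, n = 3 each).

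Of 30 other matrix proteases 21 were above background, and over all arrays 0 were called at any hour. In the batch fit 2 were higher and 1 lower at 24 h, and 1 higher and 1 lower at 48 h (shares of all probe sets as above). The higher ones were Prss23 at both hours (at 24 h 0.64, SE 0.15, adjusted p = 0.0088) and Adam9 at 24 h (0.58, SE 0.17, adjusted p = 0.032), and Htra3, a secreted serine protease, was lower at 24 h (-1.25, SE 0.25, adjusted p = 0.0032) and 48 h (-2.28, SE 0.25, adjusted p = 3.8e-05). Of 31 matrix substrates 23 were above background. Over all arrays 0 were higher and 3 lower at 24 h and at 48 h, namely Col2a1, Vegfc and Ltbp2 (1.76% and 1.64% of all probe sets called). The batch fit called 0 higher and 4 lower at 24 h, and 3 higher and 3 lower at 48 h. There Vcan, the versican cut by ADAMTS1 and ADAMTS5, was lower at 24 h (-0.97, SE 0.26, adjusted p = 0.021) and not at 48 h (0.12, SE 0.26, adjusted p = 0.84). At 48 h Col1a2 (0.80, SE 0.16, adjusted p = 0.0037), Bgn and Lamb1 were higher and Col2a1, Vegfc and Ltbp2 lower, and the list's median was 0.21 beside 0.00 over all probe sets. Without replicate 3 the counts were 0 higher and 9 lower at 24 h (4.65% and 5.44% of all probe sets). At 48 h 4 were higher there (Bgn, Col1a2, Nid1 and Reln) and 8 lower, among them Col3a1, Col4a1, Col5a1 and Postn (4.36% and 4.98%), with a median of 0.12 beside 0.01.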

How the data were processed

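Oligonucleotide arrays were run on RNA from 15 samples, each on the A and the B chip, with hour, chip and replicate number taken from the labels. The deposited values were linear intensities per probe set, 1 column per array, not pooled. The summarising software, with its detection calls, is not given in the sources used here, nor is the genome build. The authors had scaled every array to 1 trimmed mean, as the deposited intensities themselves show, which hides any change in the total RNA of a cell. No further scaling was applied. Probe sets were named from GEO's platform annotation, updated through RefSeq, which changed 0 symbols.

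The deposited intensities were turned into log2(intensity + pseudocount), with pseudocounts of 29 (A) and 54 (B), the 20th percentile of each chip, so dim genes changed by more than their log2 changes say. Tests covered the upper 60% of probe sets by mean value (13576 on A, 13507 on B), without the 64 control probe sets of each chip. Each chip was fitted in limma 3.58.1 (R 4.3.3) with hour as a factor over its 15 arrays, with an intensity trend. Tests were two-sided, with Benjamini-Hochberg adjustment over all probe sets of a chip. The fits were also run on simulated data with independent noise, a replicate 3 shift equal at all hours and the same change in every replicate. Those settings leave out courses that differ between replicates, so no conclusion about the calls is drawn from that run. With 3 arrays against 3 an exact permutation test cannot go below 0.1, so the pooled spread carries the calls.

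All members were named, with every array given for those called in any fit and for Mmp2, Mmp14 and the 4 Timp genes, and up to 4 genes of smallest adjusted p per list. Members, lists, the batch fit and the fit over replicates 1 and 2 were chosen with earlier results of these data known. The alternatives were other scalings, pseudocounts, filters, variance models and probe sets, the replicate block, and leaving out each array. The comparison of changes between replicate 3 and replicates 1 and 2, the alternatives within the batch fit (no filter included) and the counts of arrays outside the 0 h range were chosen after seeing the data. Coordinates other than those of RefSeq promoters are not given, since the files name no build.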

Additional observations from a re-analysis of the deposited data

Results flagged for a closer look

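For Timp3 and Mmp2 the change from 0 h differed between replicate 3 and replicates 1 and 2, by an interaction term in limma fitted over all tested probe sets. Timp3 changed more positively in replicate 3 by 1.93 on the log2 scale at 24 h (adjusted p = 0.026) and by 1.91 at 48 h (adjusted p = 0.017). Its array of replicate 3 had 912 at 24 h and 1338 at 48 h, against 903 at 0 h, and replicates 1 and 2 averaged 133 at 24 h and 207 at 48 h, against 577 at 0 h. Mmp2 changed more positively in replicate 3 by 1.82 at 48 h (adjusted p = 0.013). Its array of replicate 3 had 141 at 48 h, against 102 at 0 h, and replicates 1 and 2 averaged 329 at 48 h, against 941 at 0 h. Both values of replicate 3 lie near the background limit of 96.6 on that chip, which is a rank and no detection call. How well a fall could be measured at that level is not known, so the difference for Mmp2 says little about its course in replicate 3. Replicate 3 has 1 array at each hour, so its own spread within an hour is not measured, and the test borrows that of the other arrays. What distinguishes replicate 3 is not given in the labels, and its part in these differences was not tested.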

How the results depend on the processing

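The number of the 25 genes that differed between the hours, 1 over all arrays (Adamtsl2), was 0 with median centring, with no filter and without the intensity trend, and 0 to 2 when an array was left out. Adamtsl2's adjusted p in that F test ran from 0.0091 to 0.16 when an array was left out and was 0.06, 0.065 and 0.096 under the 3 settings named first. The number called at 24 h, 1 over all arrays, was 0 with no filter, without the trend and with only the arrays of the hours compared, and 0 to 2 with an array left out. At 48 h it was 0 over all arrays and 0 to 1 with an array left out. At 4 h and 12 h it stayed 0 whichever array was left out, and at 12 h it was 1 in replicates 1 and 2 alone. Replicate 3 as a batch term gave 10 genes between the hours, 6 at 24 h and 5 at 48 h, and replicates 1 and 2 alone gave 12, 8 and 10. In the batch fit itself the counts ran from 6 to 11 between the hours, from 3 to 8 at 24 h and from 3 to 7 at 48 h when an array was left out. The replicate number as a block gave 8 genes between the hours (without Timp2 and Timp3 of the 10), 0 at 4 h, 0 at 12 h, the same 6 as the batch fit at 24 h and 4 at 48 h (without Adamtsl5, adjusted p = 0.056). Deviations of arrays with the same number correlated at 0.044 to 0.726 on A and 0.003 to 0.432 on B, over 10 pairs per number. For numbers 1, 2 and 3 the medians were 0.365, 0.359 and 0.634 on A and 0.102, 0.13 and 0.323 on B. Between different numbers the medians were lower, at -0.375 and -0.147. The numbers were not taken to pair the samples, since not each correlation was over 0.1. A pairing is not excluded by these values, and the block counts above are those that allow for it. The 9 genes called in replicate 3 against replicates 1 and 2 became 9 to 12 with an array left out. Over single genes, 3024 recomputed values kept their direction and their side of the threshold, 55 passed the threshold and 12 lost it, 129 untested values moved and 0 reversed. The median of all tested probe sets moved by less than 0.1 on the log2 scale under both other scalings. Except where a setting itself leaves out arrays or changes the probe sets tested, the cause of these differences was not tested. Probe sets near background, such as Timp4 and Mmp24, limit what the arrays can show for dim genes.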
